A study of Rattus norvegicus with 12 samples.

Results

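The genes described here are matrix proteases, cathepsins, and the Timp and serpin families, whose members mostly inhibit proteases. They were measured in rat kidney and in a cultured kidney tissue. They were taken by symbol from the array's annotation: every gene named Mmp, Timp or Adamts with a number, Cts with a letter, or starting with Serpin. This gave 83 genes of the 14217 with a single symbol, namely 17 matrix metalloproteinases (Mmp), 12 Adamts proteases, 4 tissue inhibitors of metalloproteinases (Timp), 17 cathepsins (Cts) and 33 serpins. A gene with several probe sets, as 18 of the 83 had, was read from the probe set of highest mean signal. Of the 83, 56 were above the 40th percentile of their array on at least 2 arrays and were tested, and 27 were not.

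RNA was measured on 12 Affymetrix arrays in 4 groups. There were 3 arrays of kidney from embryonic day 13 (E13), 4 from day 18 (E18) and 3 from week 4 of postnatal life (Wk4), and embryonic kidneys were processed straight after dissection. The last group (n = 2), named recombined tissue here, put MM together with UBs that had formed in vitro and had not branched, and culture lasted 6 days. In the field UB stands for the ureteric bud and MM for the metanephric mesenchyme, and the study asked whether tissue made this way follows the course of normal development. The labels name no strain, genotype, sex or treatment for any group, and no array of uncultured bud and mesenchyme or of mesenchyme cultured alone was analysed here, so culture and recombination cannot be told apart. Nor do they give the animals or cultures behind the replicates, so p-values reflect only how far these arrays differ from each other, which may be technical. The median signal of an array was 799 to 1020, and precision is limited by how few arrays there are.

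Matrix metalloproteinases are zinc enzymes that cut collagens, elastin and other matrix proteins, either after secretion or from the cell surface, and Timp proteins bind their active site. Adamts enzymes are secreted relatives that cut proteoglycans, procollagens and von Willebrand factor. Cathepsins degrade proteins in lysosomes, and some act outside the cell, while most serpins trap serine proteases such as thrombin, plasmin or granzyme B. The growing ureteric bud advances through matrix that such enzymes remodel, and proximal tubule cells and macrophages are both rich in lysosomes.

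The 83 genes did not move as a block between the stages. From E13 to E18, 6 members rose: the proteases Mmp9 and Adamts16, the cathepsins Ctsc and Ctsk, and the serpins Serpinb1a and Serpinf2. From E18 to Wk4, 9 rose, of which 4 were cathepsins, 4 serpins and the last Timp3, and 8 fell, of which 4 were Adamts genes, 3 Mmp genes and the last Timp1. From E13 to Wk4, 16 rose and 6 fell, with 9 cathepsins among those that rose. Levels are deposited signals, differences are of log2(signal + 271) and carry the SE from limma, and rose, fell and called mean an adjusted p under 0.05 with a change of at least 3-fold on that scale, which understates the change of dim genes.

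Over all 22599 tested probe sets, 1.93% were called higher and 0.407% lower at E18 than at E13, and the 6 members that rose are 7.23% of the 83. At Wk4 against E18 the same shares were 5.76% and 5.43%, where the members had 10.8% and 9.64%. At Wk4 against E13 they were 9.39% and 8.46%, so genes of many kinds moved over that span, and the members had 19.3% and 7.23%. The members' shares here and below are of all 83, including the 27 not tested, which lowers them, while the background counts tested probe sets only. With that limit, the 6 falls at Wk4 against E13 were near the background. The 3 developmental comparisons share their arrays and are not independent of each other. Between E13 and E18 limma called 0 members lower, while 6 had a lower value at an unadjusted p under 0.05, where 13.7% of all probe sets did.

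Recombined tissue was higher than each kidney stage for Mmp12, Mmp9, Timp2, Ctsz, Serpinb9 and Serping1. Against E13, 19 members were higher (22.9% of the 83), including 8 cathepsins and 4 Mmp genes, with 3.95% of all probe sets called higher and 0.912% lower. Limma called 0 members lower there, and 2 had a lower value at an unadjusted p under 0.05, where 20.3% of all probe sets did. Against E18, 8 were higher (9.64% of the 83) and 3 lower (3.61%), where 2.73% and 1.67% of all probe sets were, 4.4% in all. Against Wk4, 16 were higher (19.3% of the 83) and 6 lower (7.23%), where 7.88% and 7.32% of all probe sets were. Of the 16, 8 were Mmp genes, and the share of the 6 lower was near that of all probe sets. These 3 comparisons share the recombined arrays and are not independent either.

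Without the filter on low signals, the median difference between recombined tissue and E13 was 0.50 over all 83 members and 0.02 over all 31042 probe sets. Against E18 these medians were 0.44 and 0.04, and against Wk4 0.20 and 0.12. Between the stages the members' medians were 0.20 from E13 to E18, 0.09 from E18 to Wk4 and 0.16 from E13 to Wk4, while those over all probe sets lay between -0.04 and -0.02. By family, the cathepsins had the highest median at E18 against E13, at 0.92, and at Wk4 against E13, at 1.69. The Mmp genes had the highest median of recombined tissue against Wk4, at 1.53.

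**Figure D1:**
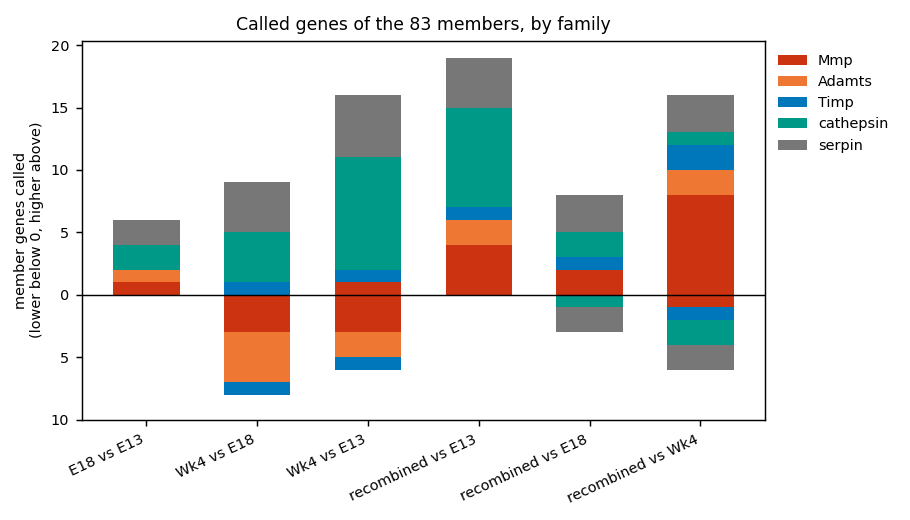
Number of the 83 member genes called in each of 6 comparisons, stacked by family, with genes called higher above 0 and genes called lower below 0. Recombined tissue against E13 had 19 members above 0 and 0 below it, and cathepsins made up 9 of the 16 that were higher at Wk4 than at E13.

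**Figure D2:**
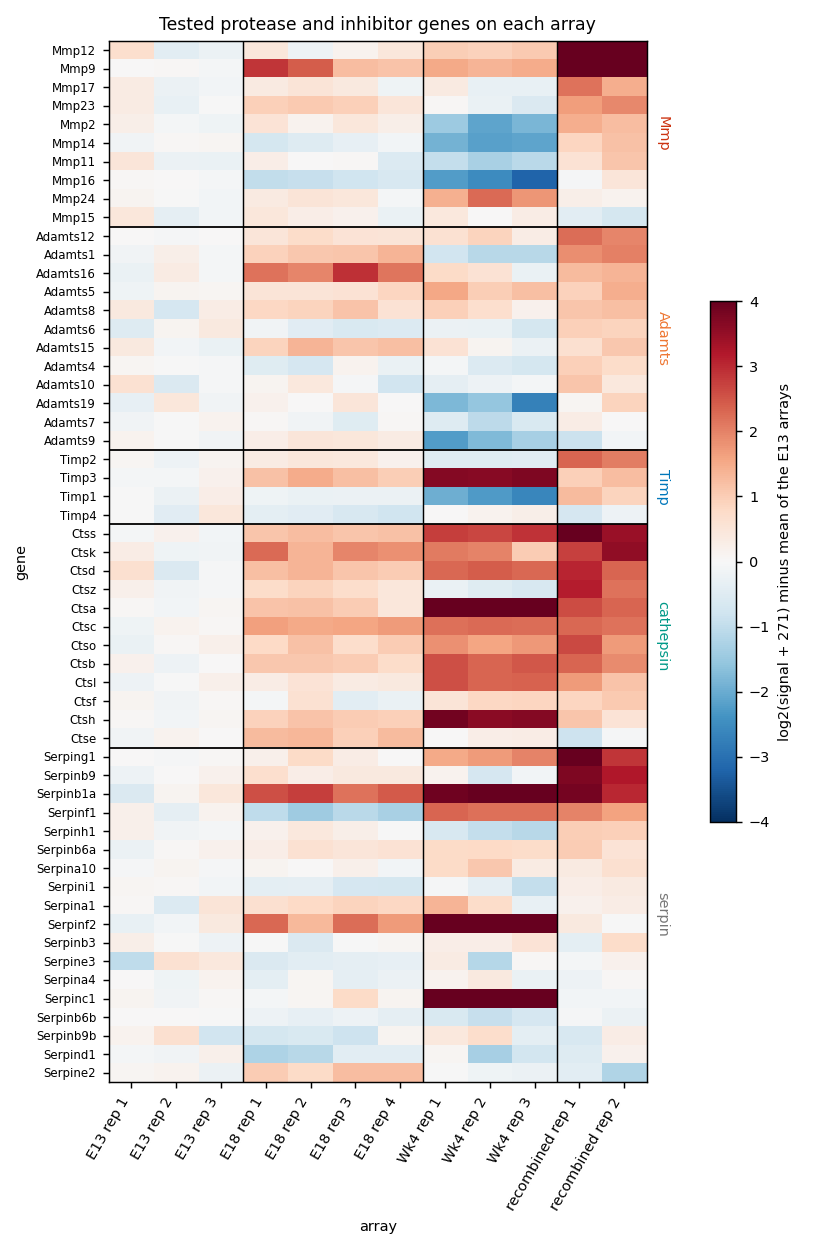
The 56 tested members on each of the 12 arrays, as log2(signal + 271) minus the gene's mean over the E13 arrays, with colours clipped at a difference of 4 either way, genes grouped by family and arrays by group. The 2 recombined arrays stand out for Mmp12, Mmp9 and Serpinb9, and the 3 Wk4 arrays for Ctsa, Ctsh, Timp3, Serpinc1 and Serpinf2.

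Within the embryonic arrays, residuals from the group means fell into 2 sets, found after the data were seen and named by no label. Set 1 held E13 replicate 1 with E18 replicates 1, 2 and 3, and set 2 held E13 replicates 2 and 3 with E18 replicate 4. Residual correlations over all tested probe sets ran from 0.25 to 0.41 between arrays of different stages in the same set, and from -0.60 to -0.15 across sets. The residuals of a stage cancel out, so the values across sets are partly forced by those within sets. With the set as a term of the fit, 6 members were called between E13 and E18. Set 1 holds 1 E13 array and set 2 holds 1 E18 array. A comparison of E13 with E18 within a set thus rests on 1 array on that side, and only the size of the difference is given. The difference of Ctsk between E13 and E18 (1.85) fell short of 3-fold within set 1 (1.56). Those of Mmp9 (1.91) and Serpinf2 (1.88) did so within set 2 (1.16 and 1.54). In comparisons with the other groups, differences short of 3-fold with set 1 alone were those of Ctsk at Wk4 against E13 (1.39) and Mmp14 at Wk4 against E18 (-1.53). The same held for Mmp17 and Mmp23 in recombined tissue against E13 (both 1.47). With set 2 alone it held for Serpinf2 in recombined tissue against E18 (-1.50).

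Markers of other cells moved with the groups, and in RNA of whole tissue fewer cells of a type and less RNA per cell cannot be told apart. The summed signal of 20 macrophage markers was 11621 to 14791 at E13, 28186 to 33355 at E18, 52373 to 59826 at Wk4 and 176493 to 339812 in recombined tissue. There 18, 17 and 16 of the 20 were higher than at E13, E18 and Wk4, led by Adgre1 and Cd68, while the macrophage marker Cd163 was below the 40th percentile on both arrays. The 16 fibroblast and myofibroblast markers summed to 158248 to 209424, 284116 to 331405, 127265 to 181936 and 813460 to 900498 in the same order, and 12, 7 and 12 of them were higher in recombined tissue. Of 19 proximal tubule markers all rose from E18 to Wk4, and their sum went from 4802 to 7239 at E13, through 69291 to 95789 at E18, to 1461820 to 1620430 at Wk4, with 13586 to 15848 in recombined tissue. Of 10 endothelial markers 5, 8 and 8 were lower in recombined tissue than at E13, E18 and Wk4. The 11 markers of kidney epithelium and its progenitors summed to 43409.5 to 56649 at E13, 83213 to 113639 at E18, 178240 to 191952 at Wk4 and 32439 to 50348 in recombined tissue. These sums do not give the course of each marker. From E18 to Wk4, 3 of the 11 rose and 4 fell, with a median difference of -1.17 without the filter. In recombined tissue 6 were lower than at E18. Against E13 limma called 0 in recombined tissue, with 1 higher and 3 lower at an unadjusted p under 0.05. The part of these cells in the results that follow was not tested.

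**Figure D3:**
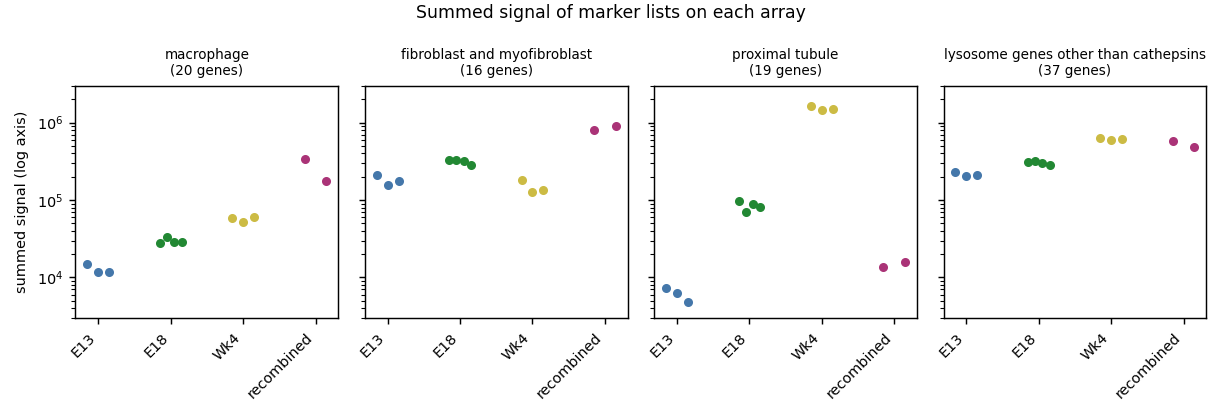
Summed signal of the macrophage, fibroblast and proximal tubule markers and of 37 lysosome genes other than cathepsins, by group on a log axis, with a point for each array in order of replicate. The macrophage sum was highest on recombined replicate 1, at 339812, and the proximal tubule sum was at least 1461820 on the 3 Wk4 arrays and at most 95789 elsewhere.

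Among the 17 matrix metalloproteinases, Mmp12 and Mmp9 were high in recombined tissue. Mmp2, Mmp14 and Mmp16 fell from E18 to Wk4 and were higher in recombined tissue than at Wk4. Mmp12, the macrophage elastase, had signals of 392, 37.3 and 81.5 at E13, 303, 94.0, 188 and 298 at E18, and 548, 525 and 585 at Wk4. In recombined tissue it read 32648 on replicate 1 and 10689 on replicate 2. Both recombined arrays lay far above every kidney array, and the kidney stages lay close together, near or below the 40th percentile of their arrays, which was 503 to 586. The difference was 5.51 ± 0.40 from E13 (adjusted p = 2.72e-07), 5.29 ± 0.38 from E18 (adjusted p = 2.77e-07) and 4.53 ± 0.40 from Wk4 (adjusted p = 3.21e-07). Of the kidney arrays 1 Wk4 array alone was above its 40th percentile, so Mmp12 passed the filter through its recombined arrays and had to differ there; these values describe its signal and add no support of their own.

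Mmp12 lies on rat chromosome 8 in a run of related genes, in the order Mmp13, Mmp12, Mmp1b, Mmp3, Mmp1, Mmp10, Mmp8, Mmp27, Mmp20 and Mmp7. Of the members that lie there, Mmp3, Mmp7, Mmp8, Mmp10, Mmp12 and Mmp13, only Mmp12 passed the filter, which restates its high recombined signal. Mmp3, Mmp10 and Mmp13 stayed at or below 336 on all 12 arrays, Mmp7 reached 477 on recombined replicate 1 and Mmp8 reached 622 on recombined replicate 2. The 100 bases before the annotated start of these 6 genes are shown because most of them share 2 motifs while their signals differ. Sequences are from RefSeq on the rat assembly GRCr8, on the plus strand, and capitals mark TGANTCA, the AP-1 motif, and TATAAA, the TATA motif, on either strand; Mmp8 holds the TATA letters on the opposite strand and no TGANTCA in this window.
Mmp13: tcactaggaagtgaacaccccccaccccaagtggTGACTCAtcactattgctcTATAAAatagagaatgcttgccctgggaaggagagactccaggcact
Mmp12: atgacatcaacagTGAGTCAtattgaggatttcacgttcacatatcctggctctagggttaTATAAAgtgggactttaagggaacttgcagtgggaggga
Mmp3: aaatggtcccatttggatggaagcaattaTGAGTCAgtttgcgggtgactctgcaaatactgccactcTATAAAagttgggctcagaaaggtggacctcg
Mmp10: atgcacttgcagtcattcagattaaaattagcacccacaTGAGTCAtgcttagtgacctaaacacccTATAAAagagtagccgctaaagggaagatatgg
Mmp8: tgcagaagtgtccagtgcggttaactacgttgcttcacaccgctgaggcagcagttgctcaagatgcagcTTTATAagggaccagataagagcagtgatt
Mmp7: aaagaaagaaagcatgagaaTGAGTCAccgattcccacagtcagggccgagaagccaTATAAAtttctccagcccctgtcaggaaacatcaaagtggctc
These lie at chr8:12782729-12782828, chr8:12866552-12866651, chr8:12925181-12925280, chr8:12974607-12974706, chr8:13008790-13008889 and chr8:13132943-13133042.

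Promoter sequence was found for 63 of the 83 members, 11 of them Mmp genes. TGANTCA was found in 5 of the 11 within 100 bases before the start (45.5%), against 2.41% of 27457 rat promoters, and those 5 were the genes above other than Mmp8. TATAAA was found in 6 of the 11 (54.5%), against 5.95% of all promoters, and those were the 6 genes above. It was not particular to Mmp genes, being found in 3 of 7 Adamts promoters (42.9%) and 3 of 27 serpin promoters (11.1%). Of the 14 cathepsin and 4 Timp promoters 0 held it. The motifs do not overlap, and the Mmp12 copies begin 87 and 39 bases before the start. A match describes the letters and is not a site at which a factor was shown to bind.

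Mmp9, a gelatinase of macrophages and neutrophils, read 34.4, 39.5 and 11.1 at E13, 1879, 1334, 437 and 390 at E18, 581, 501 and 561 at Wk4, and 10691 and 6645 in recombined tissue. The E18 arrays were split, with replicates 1 and 2 well above replicates 3 and 4, yet each stood above the E13 arrays. It rose from E13 to E18 by 1.91 ± 0.35 (adjusted p = 0.00116), a call that was lost when the 2 probe sets of the gene were averaged (1.47). In recombined tissue it was higher than at E13 by 4.86 ± 0.42, than at E18 by 2.95 ± 0.39 and than at Wk4 by 3.41 ± 0.42 (adjusted p = 7.41e-06). The second probe set was called in the same 3 comparisons, at 3.88, 2.85 and 3.29. Beside this, the neutrophil marker S100a9 read 205, 21.6 and 42.8 at E13 and 1544, 1833, 1198 and 771 at E18, a rise of 2.14 ± 0.51 (adjusted p = 0.00773). Of 8 neutrophil and mast cell markers it was the one called there, and limma called 0 in recombined tissue against E13, where 2 were higher and 1 lower at an unadjusted p under 0.05. The part of those cells in the Mmp9 values was not tested.

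Mmp2, a gelatinase made mainly by stromal cells, read 11488, 9181 and 8525 at E13, 14299, 10603, 13435 and 11295 at E18, 3358, 2041 and 2509 at Wk4, and 26976 and 23209 in recombined tissue. The embryonic arrays overlapped, the Wk4 arrays lay below all of them and the recombined arrays above all of them. It fell from E18 to Wk4, with a difference of -2.14 ± 0.16 (adjusted p = 4.27e-08), and recombined tissue was higher than Wk4 by 3.15 ± 0.19 (adjusted p = 5.91e-09). Against E13 the recombined difference of 1.35 ± 0.19 (adjusted p = 0.000112) was under 3-fold, as was that of 1.01 ± 0.18 against E18.

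Mmp14, the membrane enzyme that activates pro-Mmp2, read 21903, 25076 and 25413 at E13, 14558, 16817, 19154 and 22125 at E18, 6324, 5146 and 5405 at Wk4, and 44004 and 54316 in recombined tissue. As for Mmp2, recombined tissue lay above the embryonic arrays, which overlapped, and Wk4 below them. Its fall from E18 to Wk4 was -1.63 ± 0.14 (adjusted p = 1.34e-07), close to the 3-fold limit, and the call was lost without E18 replicate 4 (-1.53) or without Wk4 replicate 2 (-1.57). From E13 to Wk4 it fell with a difference of -2.05 ± 0.15, and its second probe set was called in both comparisons. Recombined tissue was higher than Wk4 by 3.06 ± 0.16 (adjusted p = 1.34e-09).

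Mmp16, another membrane-type enzyme, read 2643, 2603 and 2428 at E13, 1173, 1226, 1370 and 1560 at E18, 330, 226 and 32.9 at Wk4, and 2485 and 3647 in recombined tissue. Recombined tissue lay among or above the E13 arrays, and each stage lay below the one before. It fell from E13 to Wk4 with a difference of -2.65 ± 0.23 and from E18 to Wk4 with -1.83 ± 0.21, the second call being lost without Wk4 replicate 3 (-1.55). Against Wk4 recombined tissue was higher by 2.87 ± 0.26 (adjusted p = 3.2e-07).

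Mmp24, the membrane type of neural tissue, went the other way, from 1663 ± 149 (SD, n = 3) at E13 and 2167 ± 422 (SD, n = 4) at E18 to 6747 ± 2080.5 (SD, n = 3) at Wk4, with 1938 ± 84.9 (SD, n = 2) in recombined tissue. It rose from E13 to Wk4 by 1.82 ± 0.20 and was lower in recombined tissue than at Wk4 (-1.63 ± 0.23). The latter call was lost without Wk4 replicate 2 (-1.41), and both were lost when its 3 probe sets were averaged (1.29 and -1.01).

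The remaining called Mmp genes were highest in recombined tissue. Mmp17, a membrane type held by a lipid anchor, read 5555 and 3231 there and was higher than at E13 by 1.81 ± 0.29 and than at Wk4 by 1.89 ± 0.29, and both calls were lost without recombined replicate 1 (1.44 and 1.52). Mmp23 was higher than at E13 by 1.79 ± 0.23 and than at Wk4 by 2.06 ± 0.23, but with its 3 probe sets averaged both fell short of 3-fold (1.15 and 1.28). Mmp11, first known from the stroma of tumours, was higher than at Wk4 by 1.95 ± 0.27. Mmp15 was called in none of the 6 comparisons by limma, with signals of 1056 to 2710 and an unadjusted p under 0.05 in 3 of the 6.

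**Figure D4:**
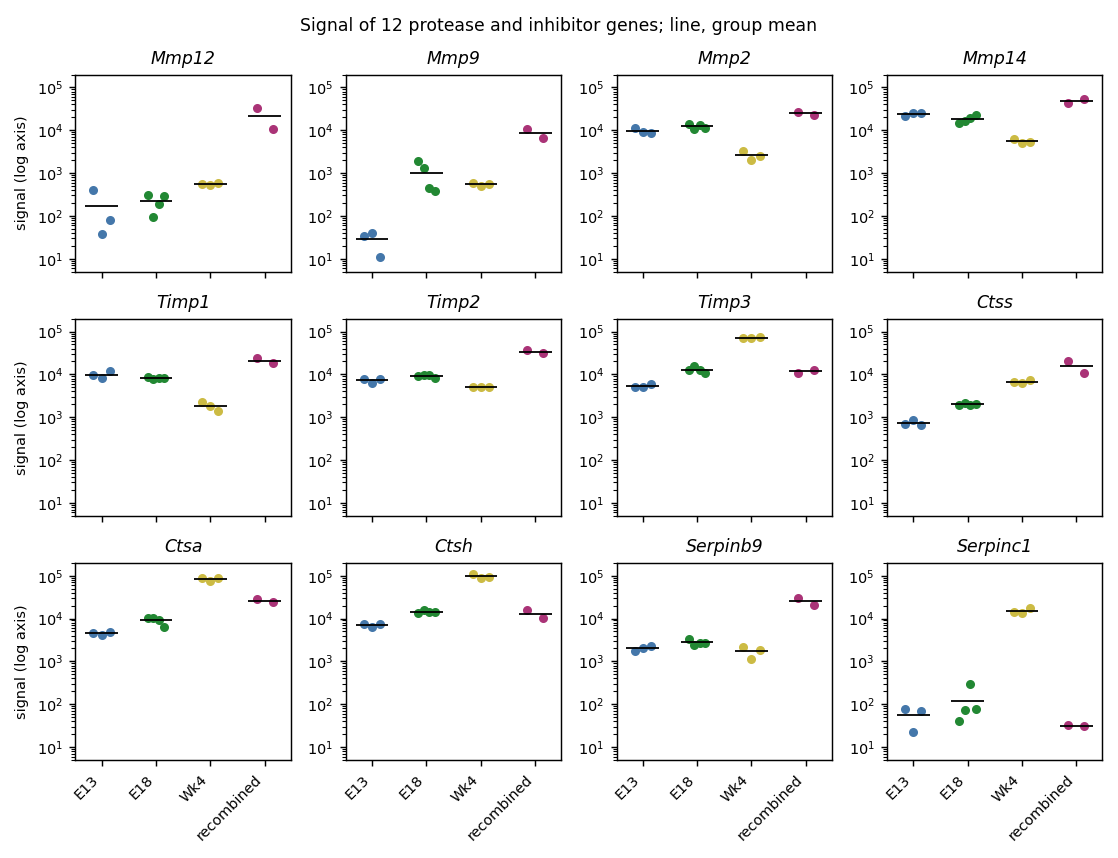
Signal of 12 named members by group, on log axes. Points are single arrays and lines are group means; Mmp12 and Mmp9 are highest on the 2 recombined arrays, while Ctsa, Ctsh and Timp3 are highest on the 3 Wk4 arrays.

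The 4 Timp inhibitors each had a course of their own. Timp1, a secreted inhibitor of most Mmp enzymes that injured tissue makes in quantity, read 9443, 8122 and 11702 at E13, 8559, 7988, 8192 and 8202 at E18, 2301, 1783 and 1372 at Wk4, and 23789 and 18240 in recombined tissue. The embryonic arrays overlapped, Wk4 lay below them and recombined tissue above them, as for Mmp2. It fell from E18 to Wk4 with a difference of -2.05 ± 0.16 (adjusted p = 5.82e-08), and recombined tissue was higher than Wk4 by 3.36 ± 0.19 (adjusted p = 2.47e-09). The differences of recombined tissue from E13 (1.09 ± 0.19) and E18 (1.31 ± 0.18) were under 3-fold.

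Timp2, which also bridges pro-Mmp2 to Mmp14 at the cell surface, read 36796 and 30750 in recombined tissue and at most 9859 on the 10 kidney arrays. It was higher in recombined tissue than at E13 by 2.19 ± 0.14 (adjusted p = 6.21e-08), than at E18 by 1.85 ± 0.13 and than at Wk4 by 2.66 ± 0.14. The call against E18 was lost when its 2 probe sets were averaged (1.47). The second probe set, which was dimmer, was higher in the same 3 comparisons but under 3-fold in each, at 1.43, 1.09 and 0.90.

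Timp3, the inhibitor that binds to the matrix and also blocks Adam and Adamts enzymes, read 5027, 5072 and 6063 at E13, 12408, 15571, 12599 and 10914 at E18, 70956, 69972 and 74518 at Wk4, and 10755 and 12962 in recombined tissue. Recombined tissue overlapped with E18, and the Wk4 arrays stood apart from all others. It rose from E18 to Wk4 by 2.47 ± 0.12 (adjusted p = 5.65e-10) and was lower in recombined tissue than at Wk4 (-2.58 ± 0.15), and all 4 of its probe sets were called in both comparisons. Timp4 was called in none of the 6 comparisons by limma, with signals of 281 to 1038 and an unadjusted p under 0.05 in 3 of the 6.

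All 12 Adamts genes were tested. Of the 5 called in any comparison, 4 were higher at E18 than at Wk4, and 2 were higher at E13 than at Wk4. Adamts1, which cuts versican and aggrecan and is needed for a normal urinary tract in mice, read 3906, 5190 and 4140 at E13, 8573, 9616, 9869 and 11697 at E18, 2494, 1902 and 1866 at Wk4, and 16646 and 18362 in recombined tissue. The groups did not overlap. It fell from E18 to Wk4 with a difference of -2.12 ± 0.14 (adjusted p = 1.17e-08), and recombined tissue was higher than E13 by 1.93 ± 0.17 and than Wk4 by 2.92 ± 0.17 (adjusted p = 3.01e-09).

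Adamts9, a versican-cutting enzyme, read 7572, 6841 and 6250 at E13, 8225, 9721, 9549 and 8715 at E18, 1262, 1824 and 2553 at Wk4, and 3657 and 6301 in recombined tissue. It was highest at E18, and recombined tissue lay between the embryonic and the Wk4 arrays, apart from an overlap with E13 at its upper end. Its fall from E18 to Wk4 was -2.16 ± 0.20 and from E13 to Wk4 -1.78 ± 0.21, both lost when its 2 probe sets were averaged (-1.14 and -0.98), and the latter also without Wk4 replicate 1 (-1.55).

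Adamts16, a gene studied in rat models of high blood pressure, read 49.4, 212 and 92.5 at E13, 1443, 1209, 2629 and 1404 at E18, 379, 305 and 49.1 at Wk4, and 647 and 710 in recombined tissue. It was thus highest on the 4 E18 arrays, with recombined tissue next. It rose from E13 to E18 by 2.29 ± 0.28 (adjusted p = 4.41e-05) and fell from E18 to Wk4 with a difference of -1.93 ± 0.28 (adjusted p = 4.24e-05). Its recombined values differed from E13 by 1.31 ± 0.34 and from E18 by -0.98 ± 0.32, both under 3-fold on the log2(signal + 271) scale, although the mean signals of recombined tissue and E13 stood 5.75-fold apart.

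Adamts19 read 1179, 2210 and 1390 at E13, 1780, 1548, 2243 and 1582 at E18, 246, 347 and 8.88 at Wk4, and 1655 and 3081 in recombined tissue. The embryonic and recombined arrays overlapped, and the Wk4 arrays were the low ones. It fell from E18 to Wk4 with a difference of -2.19 ± 0.28 and was higher in recombined tissue than at Wk4 by 2.51 ± 0.34 (adjusted p = 1.96e-05). Adamts12, which cuts cartilage oligomeric matrix protein, went from 783 ± 35.5 (SD, n = 3) at E13 to 4256 ± 651 (SD, n = 2) in recombined tissue, a difference of 2.10 ± 0.19. The other 7 Adamts genes passed the 3-fold call in none of the 6 comparisons by limma, although 20 of their 42 tests had an adjusted p under 0.05 and 23 an unadjusted one. These tests share arrays, and the counts were not set against all probe sets, so whether they are unusual is not known. Adamts6 came nearest, with 1.36 ± 0.27 between recombined tissue and E18, and it too passed the filter only with its recombined arrays. For Adamts5, an aggrecan-cutting enzyme, the probe set used differed by 1.19 ± 0.22 between recombined tissue and E13, while its second probe set was called there at 1.79 (adjusted p = 0.00083).

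Of the 17 cathepsins, 9 rose from E13 to Wk4 and 8 were above E13 in recombined tissue. Ctss, a cathepsin of macrophages and other antigen-presenting cells, read 694, 870 and 660 at E13, 1922, 2115, 1909 and 2015 at E18, 6514, 6171 and 7244 at Wk4, and 20526 and 10796 in recombined tissue. The 4 groups did not overlap and stood in that order, although the 2 recombined arrays were far apart. Its difference from E13 was 2.77 ± 0.19 at Wk4 (adjusted p = 1.07e-08) and 3.91 ± 0.21 in recombined tissue (adjusted p = 1.51e-08). The rise from E18 to Wk4 of 1.61 ± 0.18 lost its call without Wk4 replicate 3 (1.55), and the recombined difference of 1.14 ± 0.21 from Wk4 was under 3-fold.

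Ctsa, the serine carboxypeptidase that protects lysosomal galactosidase and neuraminidase, read 4647, 4150 and 4796 at E13, 10316, 10448, 9417 and 6342 at E18, 87011, 76373 and 86187 at Wk4, and 28824 and 23834 in recombined tissue. The groups did not overlap, with recombined tissue between E18 and Wk4. It rose from E18 to Wk4 by 3.17 ± 0.15 (adjusted p = 4.01e-10), and recombined tissue was higher than E13 by 2.47 ± 0.18. Recombined tissue was lower than Wk4 (-1.65 ± 0.18), a call lost without recombined replicate 2 (-1.52).

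Ctsh, an aminopeptidase of the lysosome, read 7362, 6499 and 7483 at E13, 13643, 16151, 14534 and 13969 at E18, 106705, 90621 and 94378 at Wk4, and 15582 and 10559 in recombined tissue. Recombined tissue overlapped with E18, and the Wk4 arrays stood apart. It rose from E18 to Wk4 by 2.71 ± 0.12 (adjusted p = 3.02e-10) and was lower in recombined tissue than at Wk4 (-2.89 ± 0.15, adjusted p = 9.15e-10). Ctsl, the cathepsin with broad action on proteins, rose from E18 to Wk4 by 2.03 ± 0.13, and both of its probe sets were called.

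Ctsz, a carboxypeptidase found in immune cells, went the opposite way to Ctsh. It read 2020, 1532 and 1689 at E13, 3049, 3441, 3002 and 2508 at E18, 1394, 1171 and 1025 at Wk4, and 17420 and 8713 in recombined tissue. Both recombined arrays lay above all kidney arrays, and the Wk4 arrays were the lowest. Recombined tissue was higher than E13 by 2.65 ± 0.24, than E18 by 1.95 ± 0.23 and than Wk4 by 3.11 ± 0.24 (adjusted p = 6.74e-08); the call against E18 was lost without recombined replicate 1 (1.47). The 100 bases before the start of these 4 genes are shown because their courses differ while each holds GAGGAA, a form of the core bound by ETS factors, which act in macrophages among other cells, marked in capitals on either strand.
Ctss: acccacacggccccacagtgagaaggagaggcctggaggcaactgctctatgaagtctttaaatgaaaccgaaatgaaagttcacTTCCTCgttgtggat
Ctsa: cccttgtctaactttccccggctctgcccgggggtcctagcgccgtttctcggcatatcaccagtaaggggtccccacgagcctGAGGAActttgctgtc
Ctsh: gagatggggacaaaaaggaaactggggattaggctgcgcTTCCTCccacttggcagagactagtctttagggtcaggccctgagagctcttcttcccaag
Ctsz: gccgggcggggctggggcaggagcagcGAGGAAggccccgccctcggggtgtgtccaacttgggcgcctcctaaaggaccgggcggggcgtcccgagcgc
On GRCr8 they lie at chr2:185775296-185775395, chr3:173988343-173988442 and chr8:99488656-99488755 on the plus strand and at chr3:183653848-183653947 on the minus strand, printed 5′ to 3′ of the gene. GAGGAA was found in 5 of the 14 cathepsin promoters within these 100 bases (35.7%) and in 9.66% of all promoters. The fifth is Ctse, not shown, with 2 copies and its highest signals at E18.

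Ctsk, the collagen-cutting cathepsin of osteoclasts and fibroblasts, read 276, 125 and 132 at E13, 1865, 878, 1435 and 1298 at E18, 1586, 1498 and 619 at Wk4, and 2650 and 4955 in recombined tissue. The E13 arrays were lowest, E18 and Wk4 overlapped and recombined tissue was highest, with replicate 2 above replicate 1. It rose from E13 to E18 by 1.85 ± 0.29 (adjusted p = 0.000353) and was higher in recombined tissue than at E13 by 3.14 ± 0.35 (adjusted p = 1.21e-05). Its rise from E13 to Wk4 of 1.69 ± 0.31 was lost without Wk4 replicate 1 (1.50) or replicate 2 (1.54). Of 5 osteoclast markers other than Ctsk, 3 were tested, and limma called 0 from E13 to E18, where Ctsk rose, with 2 higher and 1 lower at an unadjusted p under 0.05. Itgb3 was higher in recombined tissue than in E13 kidney (1.77 ± 0.22) and Acp5 rose from E18 to Wk4 (1.90 ± 0.22), while in recombined tissue against Wk4 Itgb3 was higher (2.66 ± 0.22) and Acp5 lower (-1.60 ± 0.26); their part in the Ctsk values was not tested.

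Ctsc, which activates serine proteases of leukocyte granules, went from 2724 ± 344 (SD, n = 3) at E13 to 8784 ± 473 (SD, n = 4) at E18, a rise of 1.60 ± 0.10 that was called with both probe sets but fell short of 3-fold without E13 replicate 1 (1.51) or E18 replicate 4 (1.57). Against E13, Ctsb was higher at Wk4 by 2.45 ± 0.14 and in recombined tissue by 2.10 ± 0.15. Ctsd, the main aspartic protease of lysosomes, was higher by 2.33 ± 0.24 and 2.69 ± 0.27 in the same comparisons, and Ctso by 1.72 ± 0.25 and 2.18 ± 0.28. For none of these 3 did recombined tissue and Wk4 differ by more than 0.46, with adjusted p from 0.068 to 0.286, which does not show that they were alike.

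Ctse, an aspartic protease of endosomes, read 518, 682 and 601 at E13, 1800, 1934, 1416 and 1822 at E18, 598, 781 and 788 at Wk4, and 213 and 568 in recombined tissue. It was highest on the E18 arrays. Recombined tissue was lower than E18 (-1.65 ± 0.23, adjusted p = 8.78e-05), but the call rested on replicate 1, without which the difference was -1.26. Ctsf, the remaining tested cathepsin, was called in none of the 6 comparisons by limma, with signals of 1319 to 4094 and an unadjusted p under 0.05 in 4 of the 6. The other 5, Ctsj, Ctsm, Ctsq, Ctsr and Ctsw, did not pass the filter and reached at most 476.

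Of the 33 serpins 18 were tested, and 8 of them were called in at least 1 comparison. Serpinc1, antithrombin, read 77.8, 22.6 and 69.3 at E13, 39.5, 74.0, 289 and 78.1 at E18, 13871, 13397 and 18089 at Wk4, and 31.9 and 30.3 in recombined tissue. It was above the 40th percentile on the Wk4 arrays alone, so it had to differ once it passed the filter. Serpina10 also passed only through Wk4 and Serpine3 only through E13. The difference was 5.33 ± 0.22 from E18 to Wk4 (adjusted p = 1.1e-10) and -5.66 ± 0.26 from Wk4 to recombined tissue.

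Serpinf2, the plasmin inhibitor alpha-2-antiplasmin, read 38.8, 85.8 and 236 at E13, 1619, 666, 1541 and 964 at E18, 14476, 14539 and 19272 at Wk4, and 233 and 106 in recombined tissue. It climbed at each stage, and recombined tissue overlapped with E13. It rose from E13 to E18 by 1.88 ± 0.25 and from E18 to Wk4 by 3.52 ± 0.25 (adjusted p = 2.66e-08). Recombined tissue was lower than Wk4 (-5.22 ± 0.30) and lower than E18 (-1.69 ± 0.29), the latter lost without E18 replicate 1 (-1.55), E18 replicate 3 (-1.57) or recombined replicate 2 (-1.49). Both are plasma proteins of the liver. The 13 liver and yolk sac markers summed to 1791 to 2984 at E13, 9910 to 11534 at E18, 44452 to 51011 at Wk4 and 2706 to 2755 in recombined tissue. Of the 8 tested, Amn, Rbp4, Fga and Alb rose from E13 to Wk4, and the same 4 were lower in recombined tissue than at Wk4. Amn, known from proximal tubule as well, held most of the Wk4 sum, at 33745 to 36892 on the Wk4 arrays. For these and the proximal tubule markers, their part in these results was not tested.

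Serpinf1, the secreted factor PEDF that restrains vessel growth, read 11589, 7684 and 11109 at E13, 4793, 3518, 4536 and 3887 at E18, 51181, 46377 and 46577 at Wk4, and 39995 and 31267 in recombined tissue. It was lowest at E18 and high both at Wk4 and in recombined tissue. It rose from E18 to Wk4 by 3.45 ± 0.15 (adjusted p = 1.84e-10) and was higher in recombined tissue than at E13 by 1.80 ± 0.18 and than at E18 by 3.01 ± 0.17.

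Serpinb1a, an inhibitor of neutrophil serine proteases, read 120, 353 and 531 at E13, 3221, 3689, 2331 and 2895 at E18, 8359, 10464 and 11628 at Wk4, and 8051 and 4470 in recombined tissue. The stages did not overlap, and recombined tissue lay between E18 and Wk4. It rose from E13 to E18 by 2.49 ± 0.25 (adjusted p = 4.99e-06), and recombined tissue was higher than E13 by 3.44 ± 0.29. The further rise from E18 to Wk4 of 1.66 ± 0.25 was lost without E18 replicate 3 (1.55) or Wk4 replicate 3 (1.56), and when its 2 probe sets were averaged (1.36).

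Serpinb9, which protects cells from granzyme B, read 1700, 2027 and 2282 at E13, 3338, 2455, 2696 and 2720 at E18, 2221, 1138 and 1840 at Wk4, and 30089 and 20701 in recombined tissue. The kidney arrays stayed within 1138 to 3338, and both recombined arrays were far above. Recombined tissue was higher than E13 by 3.48 ± 0.23 (adjusted p = 1.05e-07), than E18 by 3.05 ± 0.22 and than Wk4 by 3.69 ± 0.23, and both of its probe sets were called in the 3 comparisons.

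Serping1, the inhibitor of complement C1, read 3192, 3037 and 3313 at E13, 3706, 5608, 3990 and 3244 at E18, 9673, 10914 and 13290 at Wk4, and 62998 and 24981 in recombined tissue. E13 and E18 overlapped, Wk4 was higher, and recombined tissue was highest but with its 2 arrays far apart. Recombined tissue was higher than E13 by 3.53 ± 0.30 (adjusted p = 9.14e-07) and than Wk4 by 1.80 ± 0.30, the latter call being lost without recombined replicate 1 (1.14). Serpinh1, the collagen chaperone that does not inhibit proteases, was higher in recombined tissue than at Wk4 by 1.87 ± 0.15, where 12 of the 16 fibroblast markers were higher too; their part in it was not tested.

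Serpine2, a cell-surface inhibitor of thrombin and plasminogen activators, read 5786, 6067 and 4632 at E13, 11262, 9559, 13188 and 13069 at E18, 5400, 4863 and 4592 at Wk4, and 4010 and 2229 in recombined tissue. It was highest on the 4 E18 arrays, and recombined tissue was lowest. Recombined tissue was lower than E18 (-1.87 ± 0.20, adjusted p = 9.1e-06), which lost its call without recombined replicate 2 (-1.48). The other 10 tested serpins were called in none of the 6 comparisons by limma, and 13 of their 60 tests had an unadjusted p under 0.05. This count too was not set against all probe sets. The widest of their differences was that of Serpini1, neuroserpin, at 0.83 ± 0.24 between recombined tissue and E18. The 15 that did not pass the filter reached at most 674.

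**Figure D5:**
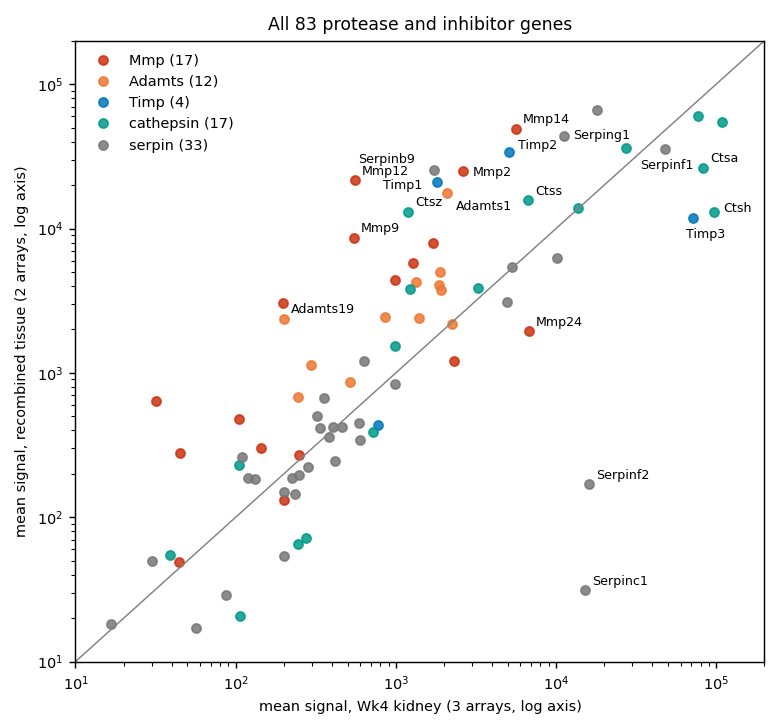
Mean signal of each of the 83 members in recombined tissue (2 arrays) against its mean at Wk4 (3 arrays), on log axes with the line of equality, coloured by family. Mmp12, Mmp9, Serpinb9 and Ctsz lie far above the line, and Serpinc1, Serpinf2, Timp3 and Ctsh far below it.

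The 2 recombined arrays differed from each other for several members. Replicate 1 read 32648 against 10689 for Mmp12, 20526 against 10796 for Ctss, 17420 against 8713 for Ctsz and 62998 against 24981 for Serping1. Its macrophage marker sum was 339812 against 176493, while its fibroblast marker sum was 813460 against 900498. For Mmp14, Mmp11, Mmp16, Adamts1 and Ctsk replicate 2 was the higher array. Replicate 1 was the higher for Mmp2 (26976 against 23209), Timp1 (23789 against 18240), Timp2 (36796 against 30750), Mmp17 and Adamts12. The members named here are examples and not a full list. With 2 arrays this is a description only, and the part of macrophage content in it was not tested.

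Urokinase and its partners, which make and bind plasmin, were counted beside these families. Of 12 plasminogen activator genes and receptors on the array, Plau, urokinase, read 620, 393 and 473 at E13, 6890, 9522, 7333 and 6847 at E18, 49896, 49812 and 48318 at Wk4, and 14415 and 4245 in recombined tissue. It rose by 3.37 ± 0.28 from E13 to E18 and by 2.66 ± 0.28 from E18 to Wk4. In recombined tissue Plau was higher than at E13 by 3.42 ± 0.33 and lower than at Wk4 (-2.61 ± 0.33). Its difference there from E18 was 0.05 ± 0.32 and was not called by limma (adjusted p = 0.923). Altogether 4 of the 12 were above E13 in recombined tissue, the others being the urokinase receptor Plaur (2.34 ± 0.45), the plasminogen-binding Anxa2 (2.04 ± 0.19) and the clearance receptor Lrp1 (1.88 ± 0.30). Against Wk4, 3 of the 12 were higher in recombined tissue and 2 lower.

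Lysosome genes other than cathepsins were also counted. Of the 37 on the array, limma called 0 between E13 and E18, with 22 higher at an unadjusted p under 0.05, 9 rose from E18 to Wk4 and 13 from E13 to Wk4. In recombined tissue 9 were higher than at E13 and 4 than at E18, and against Wk4 1 was higher and 4 lower. Their median difference without the filter was 0.52 from E13 to E18 and 1.31 from E13 to Wk4, where that of the 17 cathepsins was 0.92 and 1.69. Lgmn, legumain, which processes cathepsins, was higher at Wk4 than at E13 by 3.77 ± 0.18 and in recombined tissue by 3.36 ± 0.20.

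A list of other matrix or membrane proteases held 22 genes on the array, of which Hpse and Xylt1 are not proteases and were not tested. From E13 to E18, 3 of the 22 rose, and the largest changes were those of brush border peptidases. Mep1a, a meprin subunit, read 300, 589 and 500 at E13, 3065, 1985, 2884 and 2590 at E18, 43430, 41100 and 47169 at Wk4, and 269 and 431 in recombined tissue. Its Wk4 arrays stood apart, and recombined tissue overlapped with E13. Recombined tissue was lower than Wk4 for Mep1a (-6.16 ± 0.21), Mep1b (-6.25 ± 0.23) and Dpp4 (-5.56 ± 0.22), beside the low proximal tubule sum there. It was higher than E13 for Htra1 (2.51 ± 0.21), Fap (1.87 ± 0.27) and Htra3 (1.72 ± 0.18), of which Fap is itself on the fibroblast list.

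Of 22 further inhibitors and partners, A2m, the broad protease trap alpha-2-macroglobulin, fell from E13 to E18 with a difference of -2.26 ± 0.20 and was higher in recombined tissue than at E18 by 2.96 ± 0.23 and than at Wk4 by 4.08 ± 0.24. Spint2, an inhibitor of membrane serine proteases of epithelia, rose from E13 to E18 by 1.94 ± 0.14 and was lower in recombined tissue than at Wk4 (-2.53 ± 0.16). Thbs2, a matrix protein that clears Mmp2, was higher in recombined tissue than at E13 by 3.09 ± 0.42, and Pcolce, the enhancer of procollagen cleavage, by 1.64 ± 0.26. Counted over the list, 2 genes were higher than at E13 in recombined tissue, and 5 were higher and 4 lower than at Wk4.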

How the data were processed

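Per the submitters' processing notes, the authors used GCOS to make the deposited intensity of each probe set, which is linear; the algorithm and software version were not stated there. Total RNA was labelled with biotin by the Affymetrix protocol, per the labels' protocols. Values ran from 0.447 to 318614. After trimming 2% at either end, array means lay between 2500.6 and 2500.9, so the arrays had been scaled to a common mean. No detection calls were used.

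The 57 control probe sets were dropped, and the deposited intensity was used as log2(signal + 271), 271 being the 25th percentile of all values, which understates changes of dim genes. Probe sets above the 40th percentile of their array on at least 2 arrays were kept, 22599 of 31042. All 12 arrays entered one linear model in limma 3.58.1 (R 4.3.3; lmFit, then eBayes with an intensity trend), with two-sided tests adjusted by Benjamini-Hochberg over the kept probe sets. The 3-fold limit is the one named in the study's design. Steps were tested on simulated data.

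Gene names came from the platform annotation, which gave 1 symbol for 20826 probe sets, none for 9780, and more than 1 for 436, which were not used for naming. All 83 members matched the current rat annotation by gene ID. Array-by-array values were given for Mmp12, Mmp2, Timp1 and Ctss and, per comparison, for up to 5 called members with the largest rise and 5 with the largest fall whose groups did not overlap, plus Ctsz, Plau, Mep1a and S100a9, chosen after their values were seen. The members and lists were chosen with earlier results of these data known. Motifs were searched in both strands of RefSeq promoters. Alternatives covered the pseudocount, normalization, filter, variance model, arrays fitted, probe sets per gene, replicate block, fold limit and single arrays left out.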

Additional observations from a re-analysis of the deposited data

How the results depend on the processing

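For 97 calls of single members, the alternatives gave 1880 values. Of these, 1806 kept their direction and their side of the threshold, 74 lost the call and 0 changed sign. The 1880 include the 2-fold limit and a 3-fold limit without adjusted p, where no call could be lost. A member that an alternative dropped from the fit gave no value there, so the 74 leave out such losses. With a 60th percentile filter the counts were 5 for E13 to E18, 16 for E18 to Wk4 and 21 for E13 to Wk4. Recombined tissue then had 18 against E13. At 4 times the pseudocount, 0 members were called by limma between E13 and E18 in place of 6 (35 had an unadjusted p under 0.05 and 25 an adjusted one, short of 3-fold), 11 between E18 and Wk4 in place of 17, and 14 between E13 and Wk4 in place of 22, since it draws in the differences of dim genes. At a 2-fold limit the counts were 15 for E13 to E18, 27 for E18 to Wk4 and 25 for recombined tissue against E18, where 11 passed 3-fold. With each array left out in turn the counts ran from 5 to 6 for E13 to E18, 14 to 18 for E18 to Wk4, 20 to 22 for E13 to Wk4, 18 to 20 for recombined tissue against E13, 10 to 14 against E18 and 22 to 23 against Wk4. Same-numbered arrays did not deviate together (15 pairs, correlations of residuals from -0.17 to 0.31, median -0.02), and with the replicate number as a block the counts were 5, 16, 22, 19, 11 and 22 in that order. Under the block Ctsc between E13 and E18 (1.57) and Mmp14 between E18 and Wk4 (-1.53) fell short of 3-fold. Other alternatives kept all counts within 1.5 times. Recombined tissue rests on 2 arrays, signals of dim genes near the array's 40th percentile carry little order, and global scaling hides any change in total RNA per cell.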
